A study of Mus musculus with 12 samples.

Results

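The 9 genes described here, *Tbx6*, *Msgn1*, *Mesp2*, *Ripply1*, *Ripply2*, *Hes7*, *Lfng*, *Dll3* and *Nrarp*, belong to the presomitic mesoderm and to its segmentation clock. They were taken by symbol from a table of 38911 genes, of which 26382 had a count, and all 9 passed the filter on low counts that left 16966 genes for testing. The samples were mouse gastruloids, aggregates of embryonic stem (ES) cells that break symmetry and elongate in culture. They were grown from the single ES cell line E14TG2a and collected on day 4. Every label gives the same number of starting cells and ES cell culture in 2iLIF, a medium with a Wnt agonist, an ERK antagonist and LIF. By the methods of the study, all gastruloids also received a Wnt agonist before the treatments, to induce mesoderm. From day 3 they were kept without glucose (0×), with 21.25 mM glucose (1×), with 63.75 mM glucose (3×), or with 1× glucose plus 5 mM 2-deoxy-D-glucose (2-DG), a glucose analog that hexokinase phosphorylates. Each of these 4 groups holds 3 libraries of polyA RNA, 1 from each of ES cell passages 13, 15 and 16, and the labels name no genetic change in any group. The libraries held 31902471 to 45956080 estimated counts, and levels are given as CPM, counts scaled to a common library size. RNA came from whole gastruloids, so fewer cells of a type and less RNA per cell cannot be told apart. The methods of the study state 3 biological replicates, with the gastruloids of each library pooled from 1 plate. Nothing in the labels beyond the passage says that the libraries of a group came from separate experiments. The p-values of treatment fits without a passage term therefore measure the spread between passages. Where the passage is in the fit, as a block, the shift shared by all groups of a passage is removed. Those p-values measure the smaller spread that is left.

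The presomitic mesoderm is the unsegmented tissue at the posterior end of the embryo that is cut into somites from its anterior end. Its cells are specified by the transcription factors Tbx6 and Mesogenin 1 under Wnt and FGF signals, and they run a clock of oscillating Notch, Wnt and FGF target genes, in which the repressor Hes7 switches off its own gene and *Lfng*. At the anterior border Tbx6 and Notch activate *Mesp2*, which sets the next somite boundary and turns on *Ripply1* and *Ripply2*, whose products end Tbx6 activity. *Dll3* and *Nrarp* act on the Notch pathway, the first as a divergent ligand that inhibits the receptor in the same cell, the second as a feedback inhibitor of the activated receptor.

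The stretches upstream of 5 of these genes are shown because they hold the short motifs that are the textbook recognition letters of the regulators just named. RefSeq promoter windows (build GRCm38.p6, 250 bases before to 50 bases after the start of a transcript) were found for all 9 genes and searched on both strands, together with 32851 windows of the same length. The letters CTTTGA, bound by the Wnt effectors TCF/LEF, were found in 1 of the 9 windows and in 5257 of all 32851 windows. They were therefore less frequent among the 9 windows than among all windows. The T-box recognition letters GGTGTGA was found in 2 of the 9 and in 3.98% of all windows. The E-box that Hes repressors bind, CACGTG, was found in 2 of the 9 and in 7.15% of all. The letters of RBPJ, the DNA-binding partner of activated Notch, are GTGGGAA, and these were found in 3 of the 9 and in 6.38% of all. Each line runs 5′ to 3′ on the strand of the gene from base −250 to base −1 before that start, or to base −51 for *Msgn1*, with the matches on either strand in capitals.
*Msgn1* (chr12:11208999-11209198, minus strand): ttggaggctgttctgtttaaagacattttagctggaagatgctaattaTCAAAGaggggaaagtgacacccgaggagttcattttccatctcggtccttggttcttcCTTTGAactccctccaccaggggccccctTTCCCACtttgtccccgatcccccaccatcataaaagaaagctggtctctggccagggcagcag
*Ripply1* (chrX:139782354-139782603, minus strand): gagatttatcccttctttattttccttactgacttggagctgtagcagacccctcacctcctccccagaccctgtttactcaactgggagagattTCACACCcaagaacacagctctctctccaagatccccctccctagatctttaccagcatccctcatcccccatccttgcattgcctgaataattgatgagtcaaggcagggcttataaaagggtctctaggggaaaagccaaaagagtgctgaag
*Ripply2* (chr9:87015287-87015536, plus strand): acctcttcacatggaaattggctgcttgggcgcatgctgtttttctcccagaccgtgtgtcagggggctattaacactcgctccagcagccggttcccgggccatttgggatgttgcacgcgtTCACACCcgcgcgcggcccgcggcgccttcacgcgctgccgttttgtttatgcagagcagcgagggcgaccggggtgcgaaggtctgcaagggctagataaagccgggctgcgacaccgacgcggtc
*Lfng* (chr5:140607091-140607340, plus strand): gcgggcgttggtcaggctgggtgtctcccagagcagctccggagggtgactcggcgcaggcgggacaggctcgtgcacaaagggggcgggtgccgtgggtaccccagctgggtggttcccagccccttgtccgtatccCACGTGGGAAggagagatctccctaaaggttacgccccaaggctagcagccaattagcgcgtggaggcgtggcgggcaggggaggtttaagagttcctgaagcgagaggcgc
*Nrarp* (chr2:25180508-25180757, plus strand): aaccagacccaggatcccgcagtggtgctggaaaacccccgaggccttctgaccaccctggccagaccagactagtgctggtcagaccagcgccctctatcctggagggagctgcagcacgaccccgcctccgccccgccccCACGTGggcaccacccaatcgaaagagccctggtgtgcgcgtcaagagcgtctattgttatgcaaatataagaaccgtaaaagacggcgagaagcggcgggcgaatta
*Msgn1* held the TCF/LEF letters 2 times, on opposite strands, and an RBPJ match between them and the gene. *Ripply1* and *Ripply2* each held 1 T-box match on the opposite strand, at base −155 and base −127. The matches of *Lfng* overlapped by 3 bases, with the E-box starting at base −112 and the RBPJ match at base −109, and *Nrarp* held the E-box at base −108. The remaining match was that of RBPJ in the window of *Hes7*, which lies inside the span of the gene given below because a model transcript begins further upstream. None of these letters was found in the windows of *Tbx6*, *Mesp2* and *Dll3*. These matches are a description of the sequence and say nothing of binding in these samples.

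To compare the genes with each other, levels in 1× glucose were divided by transcript length. *Tbx6* was highest with 130 ± 19.8 CPM per kilobase (SD, n = 3), followed by *Hes7* (106 ± 13.9), *Nrarp* (104 ± 11.5) and *Dll3* (95.6 ± 21.7). *Msgn1* (78.2 ± 18.9), *Lfng* (59.2 ± 27.2), *Ripply2* (39.8 ± 39.4) and *Mesp2* (20.8 ± 15.8) came next, and *Ripply1* was last with 1.39 ± 1.41 CPM per kilobase. The libraries of every pair of neighbours in this order overlapped, except those of *Mesp2* (lowest 3.59) and *Ripply1* (highest 2.82). The genes of the posterior presomitic mesoderm and the clock were high per length, and the genes of the somite border were low or spread widely. *Ripply2* was divided by the length of an older version of its transcript and *Hes7* by that of the transcript with the smaller share of its counts, which makes their places uncertain.

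**Figure D1:**
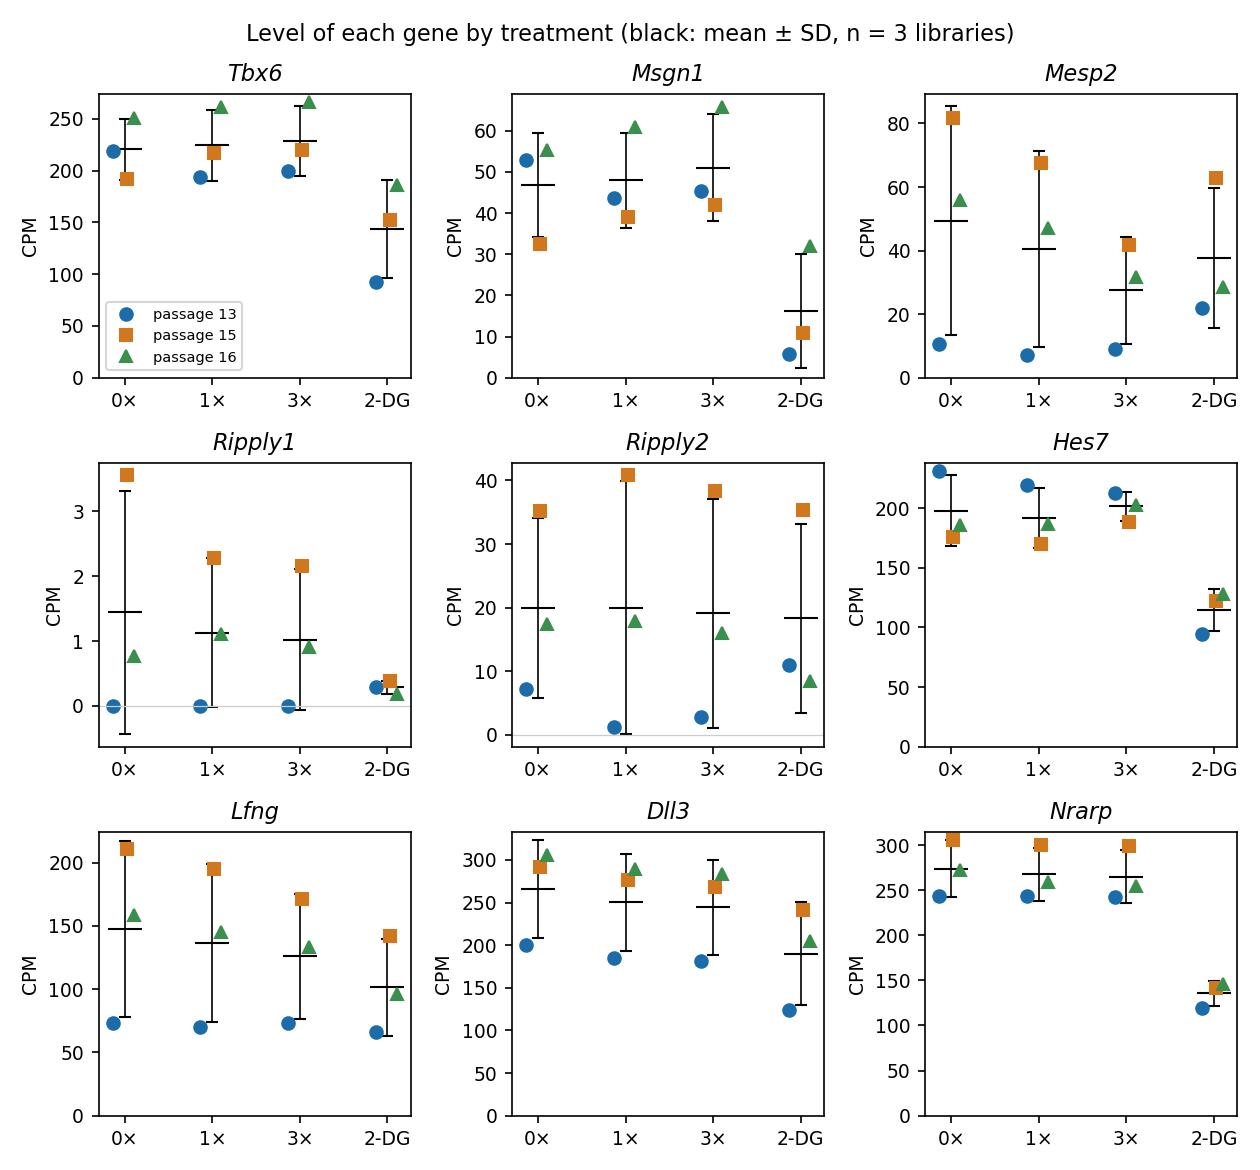
Level of each of the 9 genes in CPM (vertical axis, from 0) in the 4 treatments, with 1 symbol per library by ES cell passage and the mean ± SD of 3 libraries in black. The 2-DG libraries lie below all glucose libraries for *Tbx6*, *Msgn1*, *Hes7* and *Nrarp*, while passage 13 is lowest in the glucose groups for *Mesp2*, *Ripply1*, *Ripply2*, *Lfng*, *Dll3* and *Nrarp*.

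The first question was what 2-DG did to these genes. *Hes7* and *Nrarp* fell in 2-DG against 1× glucose, and with the passage as a block in the fit *Tbx6*, *Msgn1*, *Lfng* and *Dll3* were called lower as well. *Mesp2*, *Ripply1* and *Ripply2* were called in neither fit. Without the block the 2 called genes stand beside 8.51% of all tested genes called lower and 9.12% called higher at an adjusted p under 0.05. With the block it was 6 genes, beside 20.2% of all genes called lower and 21.1% called higher. No member was called higher in either fit. The median log2 fold change of the 9 genes was −0.64 (−0.67 with the block), against 0.00 (0.01) for all genes tested.

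*Tbx6* (chr7:126781483-126785548), the T-box factor that keeps presomitic cells from a neural fate, measured 194, 217 and 262 CPM in 1× glucose and 92.8, 152 and 186 CPM in 2-DG at passages 13, 15 and 16. The groups did not overlap, and the 2-DG library was the lowest of its passage each time. The log2 fold change was −0.64 ± 0.22 (SE, adjusted p = 0.0714), and −0.67 ± 0.13 with the block (adjusted p = 0.00204). *Ypel3*, which lies just upstream of *Tbx6*, was also lower (−0.78 ± 0.21, adjusted p = 0.0313), and how reads between the genes were divided was not tested.

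*Msgn1* (chr12:11208382-11208948), which encodes Mesogenin 1, had the largest fitted fall among the genes called with the block. Its level was 43.7, 39.0 and 61.0 CPM in 1× glucose and 5.65, 10.98 and 32.02 CPM in 2-DG, again without overlap between the groups. The log2 fold change was −1.56 ± 0.50 (adjusted p = 0.0554), and −1.69 ± 0.32 with the block (adjusted p = 0.00189). Without the passage 16 library of 2-DG, *Msgn1* (−2.52, adjusted p = 0.00323) and *Tbx6* (−0.87, adjusted p = 0.0334) were called without the block too.

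*Hes7* (chr11:69118906-69124054), the oscillating repressor at the core of the clock, measured 219, 170 and 187 CPM in 1× glucose and 94.6, 122 and 128 CPM in 2-DG. All 3 libraries of 2-DG lay below those of 1× glucose. It fell by 0.74 on the log2 scale (SE 0.14, adjusted p = 0.00508), and the call held without each of the 6 libraries of these groups in turn and with the block (adjusted p = 0.000924). *9130213A22Rik*, a gene on the opposite strand that overlaps *Hes7*, was lower as well (−1.10 ± 0.21, adjusted p = 0.00557). It had 484 to 2088 counts against 3230 to 9981 for *Hes7*, and since the strand setting of the counting was not given, reads of the overlap cannot be told apart.

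*Nrarp* (chr2:25180758-25183339), a direct Notch target, showed the smallest standard error of the 9 genes. It measured 243, 300 and 259 CPM in 1× glucose and 120, 142 and 146 CPM in 2-DG, so that each 2-DG library stood well below every library without 2-DG. It fell by 0.98 on the log2 scale (SE 0.12, adjusted p = 0.000561), and by 0.98 with the block (SE 0.05). The 9 libraries without 2-DG lay between 242 and 306 CPM. An antisense gene of the GENCODE annotation, *Gm38287*, lies opposite most of *Nrarp* and was not analysed here, and without the strand setting its reads cannot be told apart from those of *Nrarp*.

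*Dll3* (chr7:28293555-28301785) and *Lfng* (chr5:140607341-140615545), the Fringe glycosyltransferase that modifies Notch, were called with the block and not without it. *Dll3* measured 185, 277 and 289 CPM in 1× glucose and 124, 241 and 205 CPM in 2-DG, with a log2 fold change of −0.40 ± 0.27 (adjusted p = 0.357), and −0.42 ± 0.07 with the block (adjusted p = 0.000829). *Lfng* measured 70.0, 195 and 145 CPM in 1× glucose and 66.3, 142 and 95.8 CPM in 2-DG, with a log2 fold change of −0.43 ± 0.47 (adjusted p = 0.593), and −0.38 ± 0.09 with the block (adjusted p = 0.00558). In both genes the groups overlapped, passage 13 being the lowest in both, and the 2-DG library lay below the 3 glucose libraries of its own passage in all 3 passages. For *Lfng* at passage 13 that gap was small, 66.3 against 70.0 to 73.2 CPM. Without 1 library and without the block, *Lfng* ranged from −0.75 (without the passage 15 library of 2-DG) to −0.09 (without the passage 15 library of 1× glucose). *Dll3* ranged from −0.61 to −0.17, the latter without the passage 13 library of 2-DG, and neither gene was called in any of these fits.

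For the genes of the somite border no 2-DG difference was called over all passages. *Mesp2* (chr7:79810727-79813431) measured 6.98, 67.5 and 47.0 CPM in 1× glucose and 21.9, 62.8 and 28.5 CPM in 2-DG at passages 13, 15 and 16. *Ripply2* (chr9:87015537-87020441) measured 1.30, 40.8 and 17.9 CPM in 1× glucose and 11.04, 35.4 and 8.44 CPM in 2-DG. In both, 2-DG was higher at passage 13, close at passage 15 and lower at passage 16, and the range of 2-DG lay inside that of 1× glucose. The log2 fold changes were −0.10 ± 0.86 for *Mesp2* and −0.12 ± 1.08 for *Ripply2* (adjusted p = 0.958 for both), and turned to 0.21 ± 0.33 and 0.36 ± 0.55 with the block (adjusted p = 0.648 and 0.638). *Mesp1*, the neighbouring paralog of *Mesp2*, had 263 to 1155 counts per library, against 307 to 2739 for *Mesp2*, and reads that fit both copies may have been split.

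*Ripply1* (chrX:139779681-139782353) was near the limit of detection. It had 0, 87 and 51 counts in 1× glucose and 10, 14 and 7 counts in 2-DG, and 0 counts in each of the 3 glucose libraries of passage 13. At passages 15 and 16 the counts in 2-DG were under those in any glucose library of the same passage (25 to 119), while at passage 13 the order was the opposite. The log2 fold change of −1.95 ± 1.59 (adjusted p = 0.453), or −1.72 ± 0.89 with the block (adjusted p = 0.147), rests on few counts. Without the passage 13 library of 2-DG it was called with the block (−2.60, adjusted p = 0.000595).

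**Figure D2:**
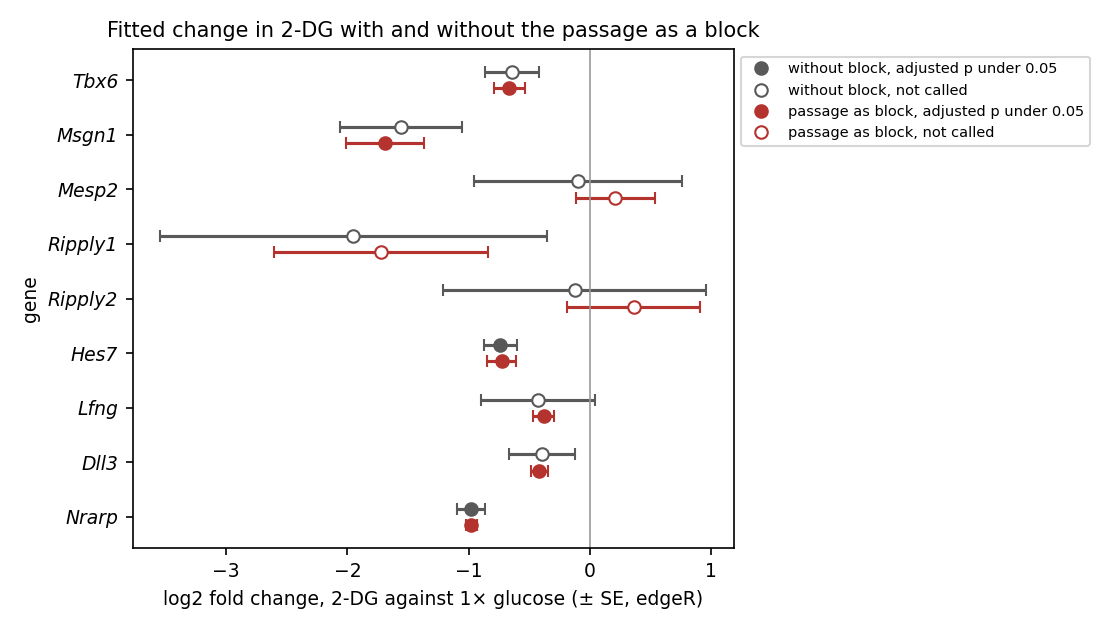
Fitted log2 fold change (horizontal axis) of each gene in 2-DG against 1× glucose, with its SE as a bar, without the block (grey) and with the passage as a block (red), filled where the adjusted p was under 0.05. *Hes7* and *Nrarp* are filled in both fits, *Tbx6*, *Msgn1*, *Lfng* and *Dll3* with the block, and *Mesp2* and *Ripply2* cross 0.

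Without regard to a fitted model, all 3 libraries of 2-DG lay below all 3 of 1× glucose for *Tbx6*, *Msgn1*, *Hes7* and *Nrarp*, 4 of the 9 genes beside 17.2% of all tested genes. No member lay wholly above. With 3 libraries against 3, the smallest two-sided p of an exact permutation test on one gene is 0.1. Leaving out the 4 passage 13 libraries gave 3 members called lower without the block, beside 9.53% of genes, and 7 with it, beside 16.4% of genes, the added gene being *Ripply1*. *Dll3* was called without the block there (−0.34, adjusted p = 0.0202), and *Mesp2* and *Ripply2* were both on the lower side of 1× glucose.

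Within a passage, 2-DG could be set against the 3 glucose libraries of the same ES cells. At passage 16 it was below all 3 for 9 of 9 genes, beside 37.2% of all tested genes. At passage 15 it was below for 7, beside 36.9%, with *Mesp2* and *Ripply2* inside the range. At passage 13 it was below for 6, beside 35.8%, and above for *Mesp2*, *Ripply1* and *Ripply2*, beside 39.0%. The log2 ratio of 2-DG to 1× glucose of *Msgn1* was −2.95, −1.83 and −0.93 at passages 13, 15 and 16, and that of *Hes7* was −1.21, −0.48 and −0.54. For *Tbx6* it was −1.07, −0.51 and −0.49. *Nrarp* kept close to one value, with −1.02, −1.09 and −0.83. *Ripply2* spanned from 3.09 at passage 13 to −1.09 at passage 16, and *Mesp2* from 1.65 to −0.72. A fit with a term for the 2-DG difference in each passage, added after the data were seen, called 6 of the 9 genes, beside 1.88% of all genes, with the values given in the closing section. Each passage holds 1 library of 2-DG, so a difference that depends on the passage and the variation of single 2-DG libraries cannot be told apart.

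**Figure D3:**
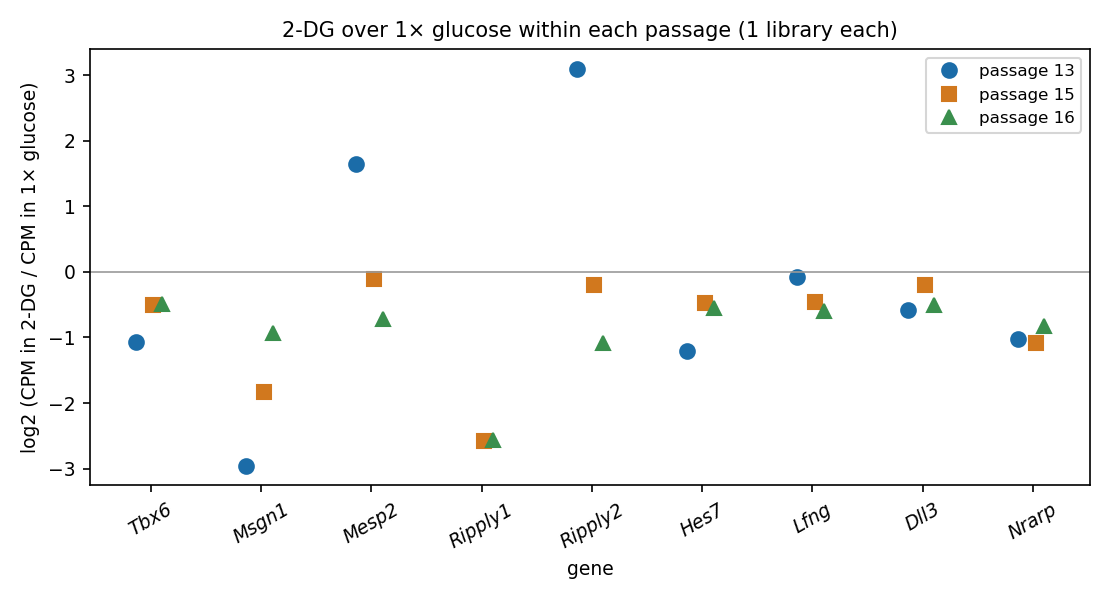
Log2 ratio of the CPM in 2-DG to that in 1× glucose (vertical axis) for each gene within each ES cell passage, 1 library over 1 library, with *Ripply1* at passage 13 left out because its 1× glucose library has 0 counts. *Nrarp* lies between −1.09 and −0.83 in the 3 passages, whereas *Mesp2* and *Ripply2* lie above 0 at passage 13 and below it at passages 15 and 16.

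The second question was whether removing or adding glucose moved the same genes. No member was called in 0× against 1× glucose, beside 0.0118% of all genes, with or without the block (0.0177% of all genes) and by DESeq2, and no member had an unadjusted p under 0.05 in the edgeR fits over all passages. The same held for 3× against 1× glucose, where 0.0% of all genes were called in both edgeR fits, 178 at an unadjusted p under 0.05 and 876 with the block, and DESeq2 called 2 genes. With the block and without the passage 13 libraries, 2 members had an unadjusted p under 0.05 in 0× against 1× glucose, beside 1332 of 17036 genes. In 3× against 1× glucose 3 members had one in that fit, beside 1217 of 17036 genes. None of these members was called. In 3× against 0× glucose, a comparison added after the data were seen, no member was called either, by edgeR or by DESeq2. The share of all genes called by edgeR was 0.0118%, and 0.802% with the block. With the block 1 member had an unadjusted p under 0.05, beside 2742 of 16966 genes. The median log2 fold change of the 9 genes was 0.04 in 0× and −0.03 in 3× against 1× glucose.

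In 0× glucose *Tbx6* measured 219, 192 and 251 CPM and *Msgn1* 52.9, 32.4 and 55.3 CPM at passages 13, 15 and 16. *Hes7* measured 231, 176 and 186 CPM and *Nrarp* 244, 306 and 273 CPM. Each of these groups overlapped that of 1× glucose. In 3× glucose *Tbx6* measured 200, 220 and 266 CPM, *Msgn1* 45.3, 42.0 and 65.9 CPM, *Hes7* 213, 189 and 203 CPM and *Nrarp* 242, 299 and 255 CPM, which also overlapped with 1× glucose. The fitted log2 fold changes of these genes in 0× glucose ran from −0.03 ± 0.49 (*Msgn1*) to 0.04 ± 0.14 (*Hes7*), and in 3× glucose from −0.01 ± 0.12 (*Nrarp*) to 0.09 ± 0.48 (*Msgn1*).

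*Mesp2* had the largest fitted values without the block after *Ripply1* in 0× and of all in 3× glucose. It measured 10.5, 81.8 and 55.9 CPM in 0× glucose and 8.91, 41.9 and 31.7 CPM in 3× glucose, with log2 fold changes of 0.29 ± 0.86 and −0.56 ± 0.86 against 1× glucose (0.33 ± 0.32 and −0.41 ± 0.33 with the block), none of them called. *Dll3* and *Nrarp* were ordered 0× above 1× above 3× glucose in each of the 3 passages, *Dll3* with 200, 185 and 181 CPM at passage 13, 292, 277 and 268 CPM at passage 15 and 306, 289 and 284 CPM at passage 16. These 2 of 9 genes stand beside 2.25% of all tested genes in that order, and the steps are within the spread between passages.

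In a further comparison 2-DG was set against 0× glucose, in which glucose was absent and no analog was present. *Hes7* (−0.78 ± 0.14, adjusted p = 0.00355) and *Nrarp* (−1.01 ± 0.12, adjusted p = 0.000453) fell, 2 of the 9 genes beside 9.04% of all genes called lower and 9.86% called higher. With the block 6 of them fell, beside 21.5% of all genes in each direction, and these were *Tbx6* (−0.65 ± 0.13), *Msgn1* (−1.67 ± 0.33), *Hes7* (−0.77 ± 0.12), *Lfng* (−0.49 ± 0.09), *Dll3* (−0.51 ± 0.07) and *Nrarp* (−1.01 ± 0.05). This comparison shares the 2-DG libraries with the one against 1× glucose, so its values are not separate evidence.

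The third question was how the genes varied between ES cell passages, which the design holds apart from treatment. The labels give no date of the experiments, so the passage and the day of the experiment cannot be told apart. With treatment in the fit, 8 of the 9 genes differed between passages, all but *Hes7* (adjusted p = 0.440), beside 46.2% of all tested genes. Without the 2-DG libraries the same edgeR test called all 9, *Hes7* with an adjusted p of 0.000938, beside 7882 of 16630 genes. Over all treatments and against passage 13, 6 members were higher at passage 15, beside 41.8% of genes called in either direction, and 8 at passage 16, beside 40.2%. Between passages 16 and 15 only *Lfng* was called (−0.44 ± 0.07, adjusted p = 0.0152), beside 4.2% of genes, while without the 2-DG libraries *Tbx6*, *Msgn1*, *Mesp2*, *Ripply1* and *Nrarp* were called there as well, 6 of the 9 genes beside 7.99% of genes.

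Against passage 13, *Ripply1*, *Ripply2* and *Mesp2*, the border genes, had the largest folds of the 9. Over the 9 libraries without 2-DG, *Mesp2* lay at 6.98 to 10.5 CPM at passage 13, at 41.9 to 81.8 CPM at passage 15 and at 31.7 to 55.9 CPM at passage 16. *Ripply2* lay at 1.30 to 7.26, 35.1 to 40.8 and 16.02 to 17.9 CPM. Neither gene overlapped between passage 13 and the later passages. *Ripply1* was at 0 counts at passage 13, at 71 to 119 counts at passage 15 and at 25 to 51 counts at passage 16. In the fit over all treatments *Ripply2* rose 7.23-fold (log2 2.85 ± 0.49, adjusted p = 0.00109) and *Mesp2* 5.30-fold (log2 2.41 ± 0.30, adjusted p = 0.000145) from passage 13 to passage 15.

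Among the clock and Notch genes, *Lfng* rose 2.51-fold from passage 13 to passage 15 (log2 1.33 ± 0.08), and its glucose libraries lay at 70.0 to 73.2 CPM at passage 13, at 171 to 211 CPM at passage 15 and at 133 to 159 CPM at passage 16. *Dll3* rose 1.58-fold and *Nrarp* 1.23-fold. In contrast, *Tbx6* (log2 0.19 ± 0.11), *Msgn1* (−0.16 ± 0.27) and *Hes7* (−0.16 ± 0.11) were not called between passages 13 and 15. Without the 2-DG libraries *Hes7* (−0.32, adjusted p = 0.00042) and *Msgn1* (−0.33, adjusted p = 0.0214) were called lower at passage 15, beside 40.8% of genes called in either direction.

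**Figure D4:**
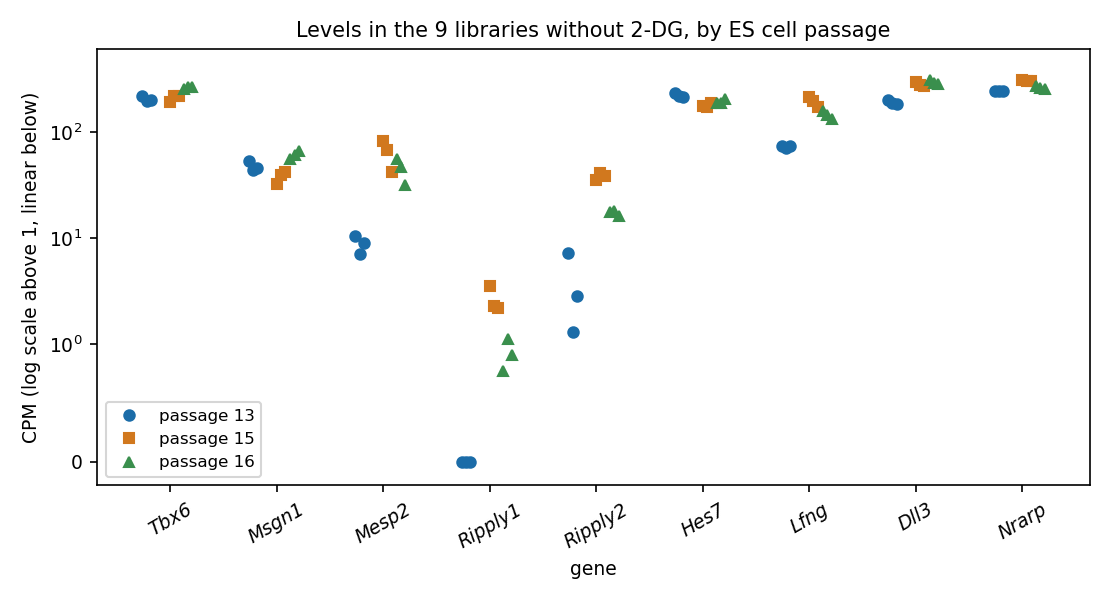
Levels in CPM (vertical axis, logarithmic above 1 and linear below) of the 9 genes in the 9 libraries without 2-DG, by ES cell passage, with 1 symbol per library. *Mesp2*, *Ripply1*, *Ripply2*, *Lfng*, *Dll3* and *Nrarp* are lower at passage 13 than in any library of passages 15 and 16, and *Tbx6*, *Msgn1* and *Hes7* are not.

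The wider pathway was read from lists of genes named for their roles, to be set beside the 8.51% of all genes called lower and 9.12% called higher (20.2% and 21.1% with the block). Of 17 posterior progenitor and signal genes, 6 fell in 2-DG against 1× glucose and none rose, with a median log2 fold change of −0.73. With the block 10 fell and 1 rose. *Fgf17* (−2.74 ± 0.52, adjusted p = 0.00572) and *Wnt3a* (−2.72 ± 0.52, adjusted p = 0.00634), ligands of the tail bud, fell most, ahead of *Evx1* (−2.59 ± 0.52), the mesoderm factor *T* (−1.57 ± 0.36) and *Wnt5b* (−1.45 ± 0.32). *Cyp26a1*, which degrades retinoic acid, was the other gene called lower. *T* also had the highest mean CPM of this list.

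Of 23 Notch pathway genes other than the 9, 1 fell and none rose, with a median of −0.03, and with the block 5 fell and 6 rose, shares near those of all genes. The gene called without the block was the ligand gene *Jag1* (−0.26 ± 0.07, adjusted p = 0.0223). *Dll1*, the ligand that drives the clock and the most abundant gene of the list, was at −0.03 ± 0.22 (adjusted p = 0.939). The receptors *Notch1* (−0.12 ± 0.43), *Notch2* (−0.05 ± 0.46) and *Notch3* (−0.09 ± 0.09) and the effector *Rbpj* (−0.03 ± 0.10) were not called in either fit, whereas *Nrarp* and *Hes7* fell. Among the *Hes* and *Hey* genes of the list, none was called without the block. With it *Hey1* (−0.83 ± 0.13, adjusted p = 0.000656) and *Heyl* (−0.79 ± 0.23, adjusted p = 0.0174) were called lower. *Hes1* (0.18 ± 0.06, adjusted p = 0.0413) was called higher, and *Hes5* and *Hey2* were not called.

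Of 17 Wnt and FGF cyclic genes, 4 fell and none rose, with a median of −0.43, and 12 fell with the block. *Egr1* (−2.54 ± 0.43, adjusted p = 0.00321) and the FGF feedback inhibitor *Spry4* (−1.71 ± 0.23, adjusted p = 0.000997) fell most, with *Efna1* (−1.59 ± 0.29) and *Dusp6* (−0.43 ± 0.06), a phosphatase of the FGF pathway and the most abundant of the list. All 17 had fitted values under 0. Of 16 somite boundary and somite genes, 15 were tested and none was called by edgeR or DESeq2, nor had any an unadjusted p under 0.05 in edgeR, with a median of −0.02. With the block 3 of them fell and 2 rose, and the median was 0.14. *Aldh1a2*, which makes retinoic acid in somites and was the most abundant of this list, was at −0.17 ± 0.53 (adjusted p = 0.866). Without the passage 13 libraries and with the block, 7 of 14 tested somite genes fell and 2 rose. In that fit 2793 of all 17036 genes were called lower and 2845 higher.

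**Figure D5:**
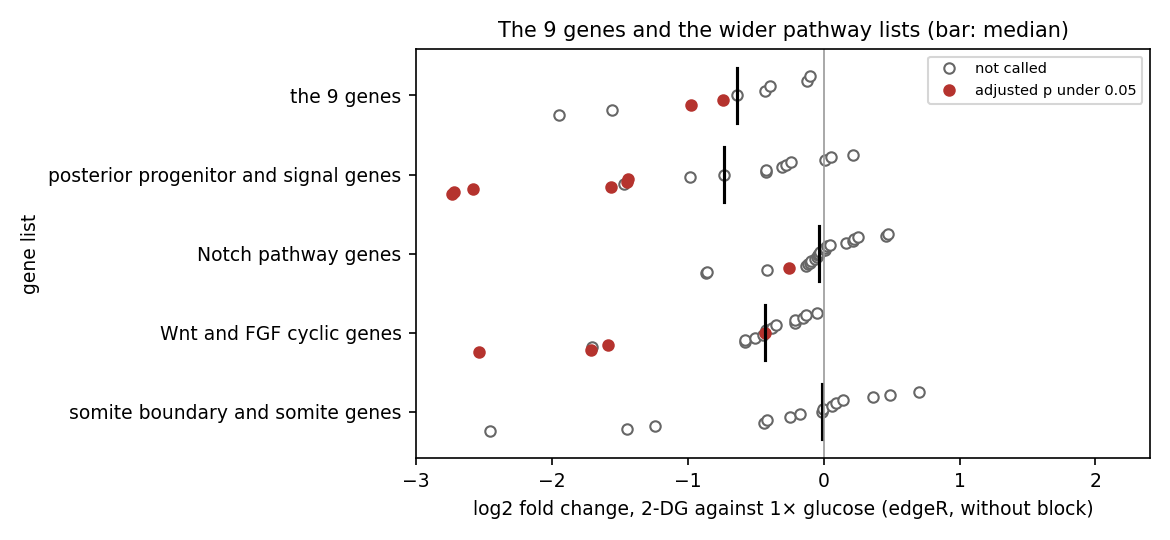
Log2 fold change in 2-DG against 1× glucose without the block (horizontal axis) for the 9 genes and for 4 wider lists, 1 point per tested gene, red where the adjusted p was under 0.05 and with the median of each list as a black bar. The medians lie at −0.64 for the 9 genes, −0.73 for the posterior genes, −0.03 for the Notch genes, −0.43 for the cyclic genes and −0.02 for the somite genes.

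In 0× against 1× glucose no gene of these 4 lists was called by edgeR or DESeq2. None had an unadjusted p under 0.05 in edgeR without the block, where 306 of all 16966 genes did. With the block 1 posterior, 9 Notch, 2 cyclic and 1 somite genes did, beside 1591 of all 16966 genes. The medians were −0.14 for the posterior genes, 0.08 for the Notch genes and 0.02 for the cyclic genes. All 15 somite genes had fitted values above 0 there (median 0.26, against 0.00 for all genes), and 13 of 15 had values under 0 in 3× against 1× glucose (median −0.20), where again none was called by edgeR or DESeq2 and none had an unadjusted p under 0.05 in edgeR over all passages. Without the passage 13 libraries 2 of 14 somite genes had one there, beside 506 of all 17036 genes, and 9 with the block as well, beside 1217 genes. Between passages the somite genes went with *Mesp2* and the *Ripply* genes, since 14 of 15 were higher at passage 15 and 14 at passage 16 than at passage 13. Of all 16966 tested genes, 3531 were called higher and 3553 lower at passage 15, and 3468 higher and 3349 lower at passage 16, than at passage 13. The summed level of the somite genes was 477 to 779 CPM in the libraries of passage 13, 1786 to 2369 CPM at passage 15 and 1215 to 1619 CPM at passage 16.

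Some markers of other cell types differed in 2-DG as well, and their counts stand beside the same shares of all genes. Of 8 tested neural progenitor markers out of 9 listed, 3 rose and 1 fell (5 and 1 with the block), and their summed level was 132 to 318 CPM in 2-DG against 65.5 to 177 CPM in 1× glucose. *Olig2* was at 0 in 3 libraries and *Olig3* in 2. Of 6 tested neurogenesis markers out of 9, 2 rose (5 with the block), with sums of 45.2 to 63.8 against 25.9 to 50.1 CPM, and *Neurod4*, *Dcx* and *Neurog1* were at 0 in 10, 6 and 3 libraries. Of 5 tested pluripotency markers out of 6, 1 rose (4 with the block), with sums of 54.0 to 69.8 against 31.7 to 49.9 CPM, and *Dppa3* was at 0 in 7 libraries. Of 7 endoderm markers 1 rose (*Cdh1*) and 1 fell (*Trh*), with sums of 111 to 152 against 77.2 to 122 CPM. With the block 4 of them rose (*Cdh1*, *Epcam*, *Cldn6* and *Foxa1*) and 3 fell (*Foxa2*, *Sox17* and *Trh*). *Cdh1* alone made up 66.9 to 88.3 CPM of the endoderm sums in 2-DG and 27.5 to 45.7 CPM in 1× glucose. The higher sums therefore do not describe the list as a whole. Of 5 endothelial markers 1 fell (4 with the block), with sums of 1.82 to 1.99 against 3.07 to 10.3 CPM, and *Cdh5* was at 0 in 4 libraries. None of 6 tested lateral and cardiac mesoderm markers out of 7 was called by edgeR or DESeq2 or had an unadjusted p under 0.05 without the block, and 1 had one with it, with sums of 10.5 to 16.2 against 7.93 to 19.7 CPM and *Tbx20* at 0 in 1 library. The 9 genes themselves summed to 536 to 908 CPM in 2-DG and 964 to 1308 CPM in 1× glucose. The summed neural progenitor markers were also high at passage 13, with 159 to 318 CPM against 57.8 to 158 CPM at passages 15 and 16. The upper end of both ranges was a 2-DG library. In the glucose libraries *Sox2* made up 107 to 126 CPM of these sums at passage 13 and 35.6 to 52.8 CPM at the later passages. The posterior progenitor gene *T* was higher at passage 13 as well, with 322 to 330 CPM against 150 to 217 CPM in the glucose libraries. The posterior list had a median sum of 2226 CPM at passage 13, 1232 CPM at passage 15 and 1391 CPM at passage 16. The part of these cell types in the values of the 9 genes was not tested.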

How the data were processed

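PolyA RNA of 12 gastruloid libraries was analysed. The authors deposited estimated counts of 120312 RefSeq transcripts per library, and per the labels the tools were Trim Galore, HISAT2, SAMtools, Picard and StringTie on mm10. Versions and the strand setting are not given in the sources used here. The authors' tables of fold changes and p-values from DESeq2 were not used. Counts, all whole numbers, were summed by gene symbol through RefSeq GRCm38.p6, which named 100% of them. Genes were kept by filterByExpr (16966 genes), scaled by TMM and fitted over all 12 libraries with edgeR 4.0.16 (glmQLFit, glmQLFTest, R 4.3.3) by treatment. Tests are two-sided, with Benjamini-Hochberg adjustment over all genes and a threshold of 0.05, and the SE is the log2 fold change over the root of F. Passage comparisons had treatment in the fit. The fit with the passage as a block is given beside the other, because the labels give groups the same ES cell passages. All 18 pairs of libraries of one passage also deviated from their group means together (correlations across genes of 0.22 to 0.80). The 36 pairs that shared neither passage nor group ranged from −0.63 to 0.36, which overlaps in part. Lengths are from GENCODE M21, and promoters from RefSeq.

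Alternatives were no filter, the block, median-of-ratios factors, DESeq2 1.42.0, the most abundant transcript alone, only the groups compared, and leaving out each library. The comparison of 3× with 0× glucose, the interaction of 2-DG with the passage, the counts of groups without overlap, in stepwise order and within a passage, and fits without passage 13 or with the block and a library left out were chosen after seeing the data. On simulated counts for 2-DG against 1× glucose, 84.5% of 200 genes changed by 1 on the log2 scale were recovered among 16699 genes. For a change of 2 it was 100% of 200 among 16696 genes. Of the calls, 3.43% and 5.21% were false. These counts were drawn without a passage effect, and only genes with a mean of at least 100 counts were changed. The shares may therefore not hold for genes that differ between passages or have few counts. No pair of libraries had more than 9.67% identical transcript counts among those with a mean of at least 10. The named genes are the 9, and from each wider pathway list up to 5 called genes by size of the 2-DG difference and the most abundant gene. The others named (*Cyp26a1*, the Notch receptors, *Rbpj*, the *Hes* and *Hey* genes of the Notch list, the endoderm markers, neighbours and markers at 0) were chosen after their values were seen. The 9 genes and all lists were chosen with earlier results of these data known.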

Additional observations from a re-analysis of the deposited data

Results flagged for a closer look

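For 6 of the 9 genes the 2-DG difference was called as varying between ES cell passages, in an edgeR fit with treatment, passage and a 2-DG term for each passage, adjusted over all genes and chosen after the data were seen. The adjusted p-values were 0.00525 for *Msgn1*, 0.00967 for *Hes7*, 0.0147 for *Dll3*, 0.0195 for *Mesp2*, 0.0281 for *Ripply1* and 0.0287 for *Tbx6*, and 0.101, 0.153 and 0.197 for *Lfng*, *Nrarp* and *Ripply2*. Over all tested genes 1.88% were called. The 2-DG difference of a passage rests on 1 library of 2-DG, set against the 3 glucose libraries of the same passage. The residual spread of this fit comes from the glucose libraries alone, so a difference that depends on the passage and the variation of a single 2-DG library cannot be told apart. *Msgn1*, *Hes7*, *Dll3* and *Tbx6* were lower in 2-DG in every passage, with the deepest difference at passage 13, where the log2 ratios to 1× glucose were −2.95, −1.21, −0.58 and −1.07. *Mesp2* and *Ripply1* were higher than the glucose libraries at passage 13 and lower than them at passage 16. Without 0×, 3× or 1× glucose in this fit, 6, 4 and 2 of the 9 genes were called. *Msgn1* was called in each of these 3 fits, *Hes7* without 0× and without 3×, *Mesp2* without 3× and without 1×, and *Ripply2* without 0× alone. Without 3× glucose *Dll3* (0.0758), *Ripply1* (0.0941) and *Tbx6* (0.0741) lost the call and *Lfng* (0.0322) gained it, by adjusted p. Without 1× glucose *Dll3* (0.0586), *Ripply1* (0.0624), *Tbx6* (0.0537) and *Hes7* (0.0501) lost it, and without 0× glucose *Mesp2* (0.0553) did.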

How the results depend on the processing

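*Hes7* and *Nrarp* were called lower in 2-DG against 1× glucose in all 21 fits tried, with adjusted p-values of up to 0.0303 and 0.00742. *Tbx6*, *Msgn1*, *Lfng* and *Dll3* were lower in all 21, but not called in each of them. With the block, the calls of these 6 genes held without each of the 6 libraries of the 2 groups in turn. DESeq2 called 4 of the 9 genes in 2-DG against 1× and 4 against 0× glucose (*Tbx6*, *Msgn1*, *Hes7* and *Nrarp*), where it called 3686 and 3866 of all genes, 1864 and 1926 of them lower, the replicate block 6 and 6, and the block without passage 13 7 and 8. Without passage 13 and without the block, 4 were called against 0× glucose. Leaving out 1 library gave 2 to 4 of the 9 against either, and with the block 6 to 7 against 1× and 6 to 8 against 0× glucose. Without the 2-DG library of passage 16 it was 4 in both, without the block.

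Over all genes, 2990 were called in 2-DG against 1× glucose, 7001 with the block, 5638 with the block and without passage 13, 1896 with only the 2 groups compared, 653 with the most abundant transcript alone and, without 1 library, 1734 to 2352 (5407 to 6382 with the block). Against 0× glucose these were 3207, 7305 with the block, 6058 with the block and without passage 13, 775 with the most abundant transcript alone and, without 1 library, 2051 to 2619 (5871 to 6607 with the block). In 0× against 1× glucose 2 genes were called, 12 by DESeq2, 5 with the block and without passage 13, 0 with only these 2 groups and, without 1 library, 1 to 3 (3 to 4 with the block). In 3× against 1× glucose it was 0, with 2 by DESeq2, 1 with the block and without passage 13 and 2 with the most abundant transcript alone. In 3× against 0× glucose it was 2, with 32 by DESeq2, 136 with the block, 1 with the most abundant transcript alone and 1 to 3 without 1 library. Passage differences fell from 7840 to 1879 genes and from 8 to 4 of the 9 with the most abundant transcript alone. The interaction of 2-DG with the passage was called for 319 genes, for 186 without 3× and 128 without 1× glucose, and for 6 of the 9 genes, or 2 without 1× glucose. The cause of these shifts was not tested.

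With the block the sign turned for *Mesp2* (0.21) and *Ripply2* (0.36) in 2-DG, and for *Ripply2* in 0× (0.36) and 3× glucose (0.037) against 1× glucose. *Dll3* in passage 16 against 15 turned to 0.073 without the 2-DG libraries. Without 1 library, the log2 fold changes whose sign turned ranged as follows over the fits with and without the block, none of them called in the fit over all libraries. The upper ends for *Mesp2* in 2-DG came with the block (0.48 and 0.19 without it), as did the lower ends for *Tbx6* and *Msgn1* in 0× glucose (−0.13 and −0.17 without it). In 2-DG against 1× glucose they were −0.68 to 0.61 for *Mesp2* and −1.03 to 0.92 for *Ripply2*, and against 0× glucose −0.97 to 0.28 for *Mesp2* and −1.03 to 0.57 for *Ripply2*. In 0× against 1× glucose they were −0.18 to 0.10 for *Tbx6*, −0.35 to 0.18 for *Msgn1*, −0.29 to 0.86 for *Mesp2*, −1.52 to 1.38 for *Ripply1*, −0.69 to 1.04 for *Ripply2*, −0.092 to 0.15 for *Hes7*, −0.24 to 0.45 for *Lfng*, −0.090 to 0.25 for *Dll3* and −0.056 to 0.12 for *Nrarp*. In 3× against 1× glucose they were −0.10 to 0.15 for *Tbx6*, −0.14 to 0.30 for *Msgn1*, −1.05 to 0.022 for *Mesp2*, −1.25 to 0.87 for *Ripply1*, −1.07 to 0.98 for *Ripply2*, −0.018 to 0.18 for *Hes7*, −0.43 to 0.22 for *Lfng*, −0.21 to 0.14 for *Dll3* and −0.11 to 0.070 for *Nrarp*.

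*Ripply1*, with at most 119 counts, sets the limit of depth, and the 3 passages limit the rest.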

Other observations

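The 2 transcripts of *Hes7* in the table moved together. The RefSeq transcript NM_033041.4 had 2927, 2057 and 2739 estimated counts in 1× glucose and 954, 1606 and 1560 in 2-DG at passages 13, 15 and 16, and the model transcript XM_006534556.4, which took 68.2% of the counts of the gene, had 7054, 4394 and 5899 against 2276, 2862 and 3246. In both the groups did not overlap. *Ripply2* had 4 transcripts, of which NM_001037907.2 took 50.8% and NM_001379243.1 took 40.1% of the counts. The first had 21, 844 and 547 counts in 1× glucose and 136, 572 and 135 in 2-DG, and the second 38, 547 and 197 against 193, 581 and 150, so both were higher in 2-DG at passage 13 and lower at passage 16. The other genes were counted as 1 transcript each.

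By the correlation of log2(CPM + 1) over the 12 libraries, which share treatments and passages, the gene most like *Hes7* was *Epb41l2* (Pearson r 0.994), and the one most like *Nrarp* was *G3bp2* (0.988). *Dll3* was most like *Septin8* (0.991), *Lfng* like *Tbx18* (0.987) and *Mesp2* like *Hs3st3a1* (0.987). *Tbx6* was most like *Cited1* (0.985), *Msgn1* like *Ypel3* (0.984), *Ripply1* like *Foxd1* (0.984) and *Ripply2* like *Lmbrd2* (0.979). No test was made of these values.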
